A study of Chromochloris zofingiensis with 18 samples.

Results

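The 3 genes described are BKT1 (Cz13g13100) and BKT2 (Cz04g11250), both annotated as beta-carotene ketolase, and ZEP (Cz07g30060), annotated as zeaxanthin epoxidase, in the green microalga Chromochloris zofingiensis. They were taken by gene identifier, with names from the gene table of the study, and are 3 of the 15220 genes listed in at least 1 sample. The study followed the transcriptome of strain ATCC30412 through loss and return of sulfur, a treatment under which the alga stores oil and astaxanthin. RNA was sequenced from 18 samples in 6 conditions with 3 replicates each, and the level of a gene is given as FPKM, a read number corrected for transcript length and for the size of the library. The replicates are described as biological, and it is not stated how the cultures were divided, so the p-values measure the spread between these samples.

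All cultures shared the strain, continuous light and CO2-enriched air. The control condition, 0 h, was logarithmic-phase cells before sulfur was removed. Starved cells, named SS with their time, were kept in sulfur-free Kuhl medium, with MgCl2 in place of MgSO4, and sampled after 6 h (SS-6 h), 12 h (SS-12 h), 24 h (SS-24 h) or 48 h (SS-48 h). SR-12 h is the condition 12 h after sulfur was given back to cells starved for 48 h. One source has sulfate being added to the culture and another has the cells moved to fresh complete medium, and which was done is not settled here. None of the 18 RNA samples is a sulfur-fed culture of the same age as the later time points, so time in culture and time without sulfur cannot be told apart.

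Astaxanthin is a red ketocarotenoid that some green algae make under stress. Beta-carotene ketolase (BKT) adds keto groups to the rings of beta-carotene or zeaxanthin, and beta-carotene hydroxylase (CHYb) adds the hydroxyl groups, and astaxanthin carries both. Zeaxanthin epoxidase (ZEP) takes zeaxanthin another way, to antheraxanthin and violaxanthin, and violaxanthin de-epoxidase (VDE) runs that step back. Ketolase and epoxidase thus stand on 2 exits from zeaxanthin, while beta-carotene is a substrate of the ketolase alone of these 2. In C. zofingiensis, mutants without a working BKT1 are known to lack astaxanthin.

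The 18 samples listed 14351 to 14867 genes each. Relative read depth was estimated from the most common ratio of low FPKM values between samples. It was 0.796 in SS-6 h replicate 1 and at least 0.937 in the other samples. The paper lists about as many clean reads for that library as for the others, but the lowest share of reads mapped to genes. The lower depth thus does not mean that fewer reads were sequenced. That library was also the lowest of its group for all 3 genes, so the change of each member from 0 h to SS-6 h is given with and without it. It had the highest FPKM sum of the 18 samples, 1136889, and was not lowest for every gene. The isomerase gene IPPI (Cz03g02150) had 92.89 FPKM in it, against 54.15 and 44.35 in replicates 2 and 3. The cause of its low values for the 3 genes was not tested. The cells carried the transcripts of a photosynthetic alga: the Rubisco small subunit gene RBCS (Cz17g13100) was between 30870 and 42870 FPKM at 0 h, and the antenna gene LHC16 (Cz13g03240) between 8465 and 9653 FPKM. At SS-48 h LHC16 was between 29.2 and 54.3 FPKM and RBCS between 6492 and 9699 FPKM. FPKM is relative to all other transcripts, so in these bulk samples a gene losing RNA and the rest of the transcriptome gaining it cannot be told apart, nor can fewer cells with a transcript and less transcript per cell.

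BKT1 was the more abundant ketolase transcript in all 18 samples. It peaked 6 h after sulfur was removed, its samples lay above the controls in FPKM through 24 h, and its level at 48 h was the lowest of the 6 conditions. ZEP went the other way at the start, with its lowest level at 6 h, and stayed below the starting level throughout starvation. BKT2 was low, at 12.6 FPKM or less, and had its lowest mean level at 48 h. After sulfur return all 3 genes were above their 48 h levels, with no overlap of replicates.

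**Figure D1:**
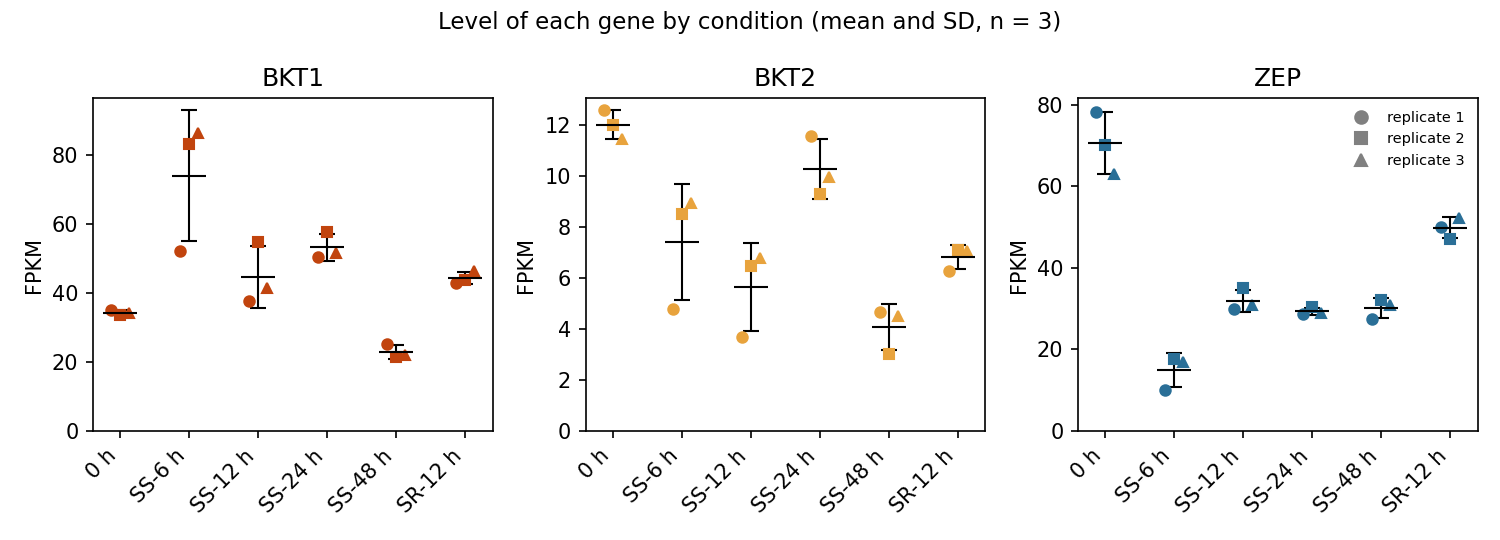
FPKM of BKT1, BKT2 and ZEP (vertical axes, linear from 0, a separate scale for each gene) in the 6 conditions; each point is 1 sample, marked by replicate, with the group mean as a bar and the SD as whiskers. BKT1 was highest at SS-6 h, where ZEP was lowest, and replicate 1 of SS-6 h lay below the other two for each gene.

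The BKT1 level at 0 h was 35.0, 33.5 and 34.3 FPKM in replicates 1, 2 and 3. At SS-6 h it was 52.2, 83.1 and 86.4 FPKM. Every sample at SS-6 h was thus above every sample at 0 h, but the 3 samples were spread widely, with a mean ± SD of 73.9 ± 18.9 FPKM against 34.3 ± 0.735 FPKM (n = 3 each). In rank, BKT1 moved from above 60.3 to 62.1% of the 15220 genes at 0 h to above 74.0 to 85.7% at SS-6 h.

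The BKT1 change at SS-6 h was 1.05 ± 0.16 on the log2(FPKM + 1) scale, here and below the limma estimate with its standard error, a 2.07-fold rise with an adjusted p of 2.9e-05. A gene was called where this change was at least 1 in size and the adjusted p, corrected over all genes after Benjamini and Hochberg, was at most 0.05. BKT1 was therefore called higher, as were 9.64% of all genes in this comparison, while 21.7% were called lower. The size is close to the threshold: without SS-6 h replicate 1 the change was 1.28, without replicate 2 it was 0.95 and without replicate 3 it was 0.92, and the last 2 values are no longer called. Rescaling to TPM (0.95) or quantile normalization (0.99) also brought it under the fold threshold.

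At SS-12 h the 3 samples had 37.8, 54.7 and 41.4 FPKM of BKT1. At SS-24 h they had 50.4, 57.6 and 51.5 FPKM. All 6 FPKM values were above those of 0 h, yet neither condition passed both thresholds. Overlap of replicates was examined in FPKM only, not after other scalings. After 12 h the change was 0.35 (limma adjusted p = 0.071). After 24 h it was 0.62 (limma adjusted p = 0.0053), a 1.53-fold difference under the fold threshold.

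At SS-48 h BKT1 was at 25.1, 21.3 and 22.1 FPKM, below every sample of every other condition. Against 0 h the change was -0.57 ± 0.16 (limma adjusted p = 0.0064), again under the fold threshold. Against SS-24 h it was -1.18 ± 0.16, with a limma adjusted p of 1.3e-05. Against the SS-6 h peak it was -1.62 ± 0.16, with a limma adjusted p of 3.1e-07. BKT1 was therefore called lower in both, at a level 2.27-fold and 3.07-fold below the earlier one. In the first of these comparisons 6.59% of all genes were called lower and 13.1% higher, and in the second 5.65% were called lower and 24.4% higher.

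At SR-12 h BKT1 was at 43.0, 43.8 and 46.2 FPKM, all above the samples of SS-48 h and of 0 h. The difference from SS-48 h was 0.93 ± 0.16 (limma adjusted p = 0.00011), just short of the fold threshold. The median of the 13778 genes with a mean of at least 1 FPKM was -0.36 in the same comparison. Median-ratio scaling divides each sample by the median ratio of its genes to their geometric mean over all samples. It used genes above 0 in every sample and gave BKT1 a change of 1.27, which passes. Against 0 h the difference was 0.36 (limma adjusted p = 0.074).

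Ordered by mean level, BKT1 ran from SS-6 h down through SS-24 h, SS-12 h, SR-12 h and 0 h to SS-48 h. Among neighbours, SS-6 h was above SS-24 h (limma adjusted p = 0.027, with overlapping replicates) and 0 h was above SS-48 h (limma adjusted p = 0.0064). SS-24 h and SS-12 h, SS-12 h and SR-12 h, and SR-12 h and 0 h did not differ at an adjusted p of 0.05, where limma gave 0.18, 0.99 and 0.074.

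The second ketolase gene, BKT2, had 12.6, 12.0 and 11.5 FPKM at 0 h. At SS-6 h it had 4.79, 8.53 and 8.95 FPKM. These ranges do not overlap, and the change of -0.67 ± 0.21 (limma adjusted p = 0.012) was under the fold threshold. Without SS-6 h replicate 1 it was -0.42. Its direction depended on scaling, since quantile normalization turned it to 0.18.

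At SS-12 h BKT2 was at 3.68, 6.50 and 6.80 FPKM, all under the 0 h samples. The change was -1.004 ± 0.21 with a limma adjusted p of 0.0009, and BKT2 was called lower, in a comparison with 11.9% of all genes called lower and 7.42% called higher. That call stands at the fold threshold. It was lost without SS-12 h replicate 1 (-0.77), without 0 h replicate 1 (-0.97), with median-ratio scaling (-0.96) and with quantile normalization (-0.57).

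The level of BKT2 at SS-24 h, 11.6, 9.32 and 9.98 FPKM, overlapped the range at 0 h. No difference from 0 h was detected there (-0.21 ± 0.21, limma adjusted p = 0.46). Against SS-12 h the SS-24 h level was higher by 0.79 (limma adjusted p = 0.0051), under the fold threshold.

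At SS-48 h the 3 samples had 4.66, 3.04 and 4.52 FPKM of BKT2. The change against 0 h was -1.38 ± 0.21, with a limma adjusted p of 5e-05, which is 2.60-fold lower. Against SS-24 h it was -1.17 ± 0.21, with a limma adjusted p of 0.00025. BKT2 was called lower in both, and the call against 0 h stood in all 30 alternative settings. Both ketolase genes were thus called lower between 24 and 48 h, and their changes, -1.18 and -1.17, were not tested against each other.

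After sulfur return BKT2 was at 6.28, 7.11 and 7.08 FPKM, above all SS-48 h samples and below all 0 h samples. The difference from SS-48 h was 0.64 (limma adjusted p = 0.016) and that from 0 h was -0.74 (limma adjusted p = 0.0097), both under the fold threshold. Ordered by mean level BKT2 ran 0 h, SS-24 h, SS-6 h, SR-12 h, SS-12 h and SS-48 h. No pair of neighbours in that order differed at an adjusted p of 0.05, limma giving 0.075 to 0.8.

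ZEP, on the epoxidation branch, had 78.2, 70.2 and 63.1 FPKM at 0 h. At SS-6 h it had 10.2, 17.6 and 16.9 FPKM. The groups are far apart, with 17.6 FPKM in the highest starved sample and 63.1 FPKM in the lowest control. Its rank went from above 81.1 to 86.1% of genes to above 36.7 to 43.4%.

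The ZEP change at SS-6 h was -2.20 ± 0.15, with a limma adjusted p of 3.9e-09, a level 4.59-fold lower. Without SS-6 h replicate 1 it was -1.96, and over all 30 alternative settings it lay between -2.33 and -1.93 and was always called. Of all genes, 6.6% had a lower change.

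In the later starvation samples ZEP was partly back. After 12 h the samples had 29.9, 35.0 and 30.8 FPKM, after 24 h 28.7, 30.3 and 29.0 FPKM, and after 48 h 27.5, 32.2 and 30.8 FPKM. These 9 samples lie between 27.5 and 35.0 FPKM, above every sample of SS-6 h and below every sample of 0 h. The rise from SS-6 h to SS-12 h was 1.08 ± 0.15 (limma adjusted p = 2.2e-05), close to the fold threshold. SS-6 h replicate 1 was the lowest of its group, so the rise would be smaller without it, by an amount not given here. Its size under other scalings is not given either. In that step 10.1% of all genes were called higher and 5.18% lower. Against 0 h ZEP was called lower at all 3 times, with changes of -1.12, -1.23 and -1.20 and limma adjusted p of 1.3e-05, 7.7e-06 and 5.7e-06. Of all genes, 6.89% were called lower and 4.57% higher in the 24 h comparison, and 8.04% lower and 12.7% higher in the 48 h one.

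At SR-12 h ZEP was at 50.1, 47.2 and 52.2 FPKM, above all starved samples and below all control samples. The difference from SS-48 h was 0.71 ± 0.15 (limma adjusted p = 0.00068). The difference from 0 h was -0.49 ± 0.15 (limma adjusted p = 0.013). Neither passed the fold threshold, though median-ratio scaling raised the first to 1.05, which does.

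In order of mean level ZEP ran 0 h, SR-12 h, SS-12 h, SS-48 h, SS-24 h and SS-6 h. The first step (limma adjusted p = 0.013), the second (0.0026) and the last (4.5e-05) separated neighbours. SS-12 h, SS-48 h and SS-24 h did not differ, limma giving adjusted p of 0.68 and 0.85 for the pairs.

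**Figure D2:**
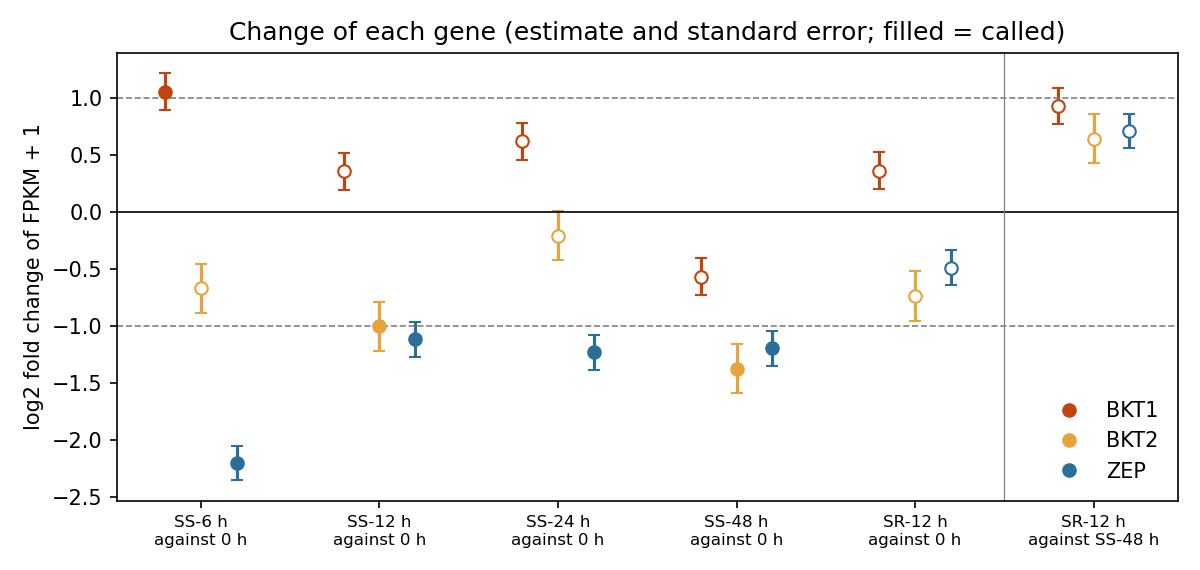
Log2 fold change of FPKM + 1 (vertical axis) of each gene in 6 comparisons; points are limma estimates, whiskers are standard errors, filled points passed both thresholds and dashed lines mark the fold threshold. ZEP was called lower at all 4 starvation times, BKT1 was called higher after 6 h alone, and BKT2 was called lower after 12 and 48 h.

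After 6 h of starvation 1 of the 3 members was thus called higher and 1 lower, where 9.64% of all genes were higher and 21.7% lower. After 12, 24 and 48 h the number called lower was 2, 1 and 2, where 11.9%, 6.89% and 8.04% of all genes were lower, and none was called higher. With 3 genes such counts say little beyond the genes themselves. In SR-12 h against 0 h, where 4.99% of all genes were called higher and 8.42% lower, none was called. In SR-12 h against SS-48 h, where 8.21% were called higher and 18.0% lower, none was called either. The 3 limma adjusted p there were 0.00011 for BKT1, 0.016 for BKT2 and 0.00068 for ZEP, all with the higher level at SR-12 h, and 87.5 to 91.0% of all genes had a lower change than these.

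The level of BKT1 relative to ZEP in the same sample does not depend on a factor that scales the whole sample. It was 0.448, 0.478 and 0.543 in the 0 h samples, given from lowest to highest, so ZEP was the more abundant transcript per length. At SS-6 h it was 4.72, 5.10 and 5.13. The spread seen in FPKM at SS-6 h was nearly gone in the ratio, with an SD of 0.0678 on the log2 scale. Between the conditions the mean log2 ratio differed by 3.35, or 10.2-fold. Quantile normalization, which shifts genes of a sample unequally, took the difference between the changes of the 2 genes from 3.25 to 2.92 on the log2(FPKM + 1) scale.

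BKT1 stayed above ZEP at SS-12 h, with ratios of 1.26 to 1.56, and at SS-24 h, with 1.76 to 1.90. It was below ZEP again at SS-48 h, with 0.663 to 0.914, and at SR-12 h, with 0.857 to 0.928. All samples of the last 2 conditions were still above the highest ratio at 0 h. These ratios are descriptions of 3 samples per condition and were not tested.

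The share of BKT1 in the summed FPKM of both ketolase genes was 73.5 to 74.9% in the controls and 90.6 to 91.6% in the SS-6 h samples. Later in starvation it was 85.9 to 91.1% (12 h), 81.3 to 86.1% (24 h) and 83.0 to 87.5% (48 h), and it was 86.0 to 87.2% after sulfur return. No sample of starvation or sulfur return came down to the range of the control. This shift in FPKM rests partly on the scaling: the change of BKT1 minus that of BKT2 at SS-6 h was 1.72 on the log2(FPKM + 1) scale and 0.81 after quantile normalization, an alternative for this difference that was chosen after seeing the data. The summed ketolase level itself was 46.3 ± 1.13 FPKM in the controls, 81.3 ± 21.2 FPKM after 6 h, 26.9 ± 2.72 FPKM after 48 h and 51.1 ± 2.02 FPKM after sulfur return (mean ± SD, n = 3 each). So at SR-12 h the sum in FPKM was above that at 0 h in every sample, with less of it from BKT2. The ketolase sum was not compared under other scalings.

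**Figure D3:**
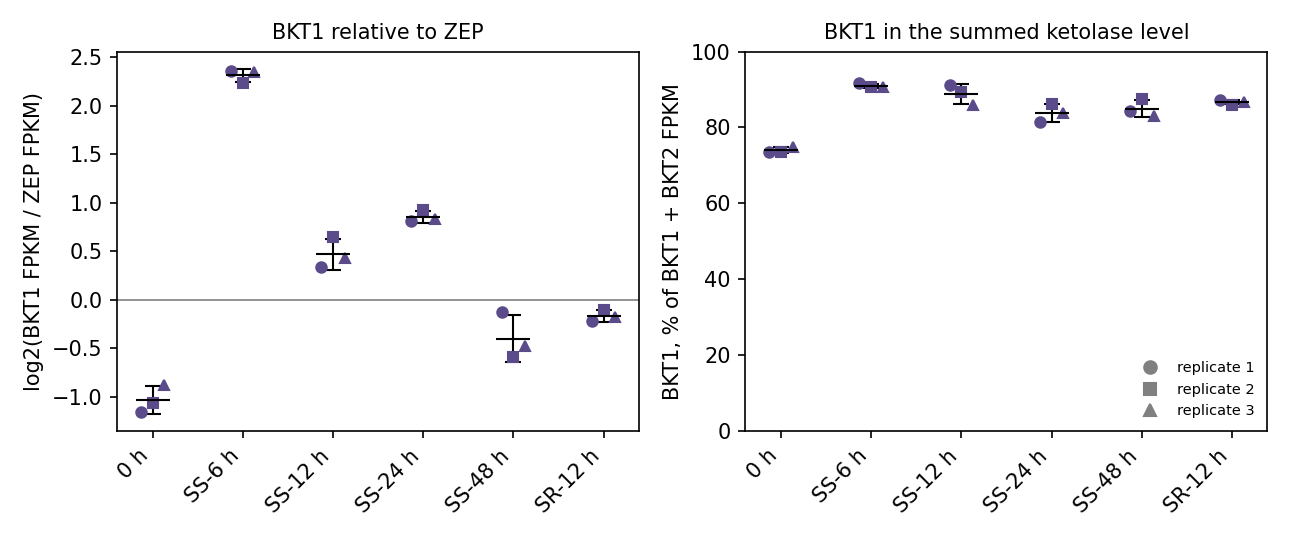
Left, log2 of the BKT1 to ZEP ratio of FPKM in each sample, with 0 where both are equal; right, BKT1 as a percentage of the summed FPKM of BKT1 and BKT2; points are samples marked by replicate, bars are means and whiskers SD (n = 3). The log2 ratio was above 0 after 6, 12 and 24 h of starvation, and the BKT1 share was lowest at 0 h.

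The other genes of the pathway were taken from the section on carotenoid synthesis of the gene table of the study, 36 genes with the 3 members included. After 6 h without sulfur 5 genes were called higher (13.9% of the list, against 9.64% of all genes) and 6 lower (16.7% against 21.7%), and leaving out replicate 1 of SS-6 h gave the same counts. The median change of the list was -0.14, against -0.17 over all genes tested. After 12 h 2 were called lower (5.56% against 11.9%), which were BKT2 and ZEP, and 0 were called higher by limma, with 18 higher at an unadjusted p under 0.05. After 24 h 4 were called lower (11.1% against 6.89%) and after 48 h 5 were (13.9% against 8.04%). In both of these limma called 0 higher, where 4.57% and 12.7% of all genes were, with 10 and 18 higher at an unadjusted p under 0.05. In SR-12 h against 0 h limma called 0 of 36 either way, against 4.99% higher and 8.42% lower of all genes, with 15 higher and 10 lower at an unadjusted p under 0.05. In SR-12 h against SS-48 h it called 4 higher (11.1% against 8.21%) and 4 lower (11.1% against 18.0%). The shares of the list were thus in part above and in part below those of all genes, and nothing particular to the list is read from them. The share of all genes with an unadjusted p under 0.05 was not counted. The counts at that cut therefore cannot be set against a background, and nothing is read from them either.

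**Figure D4:**
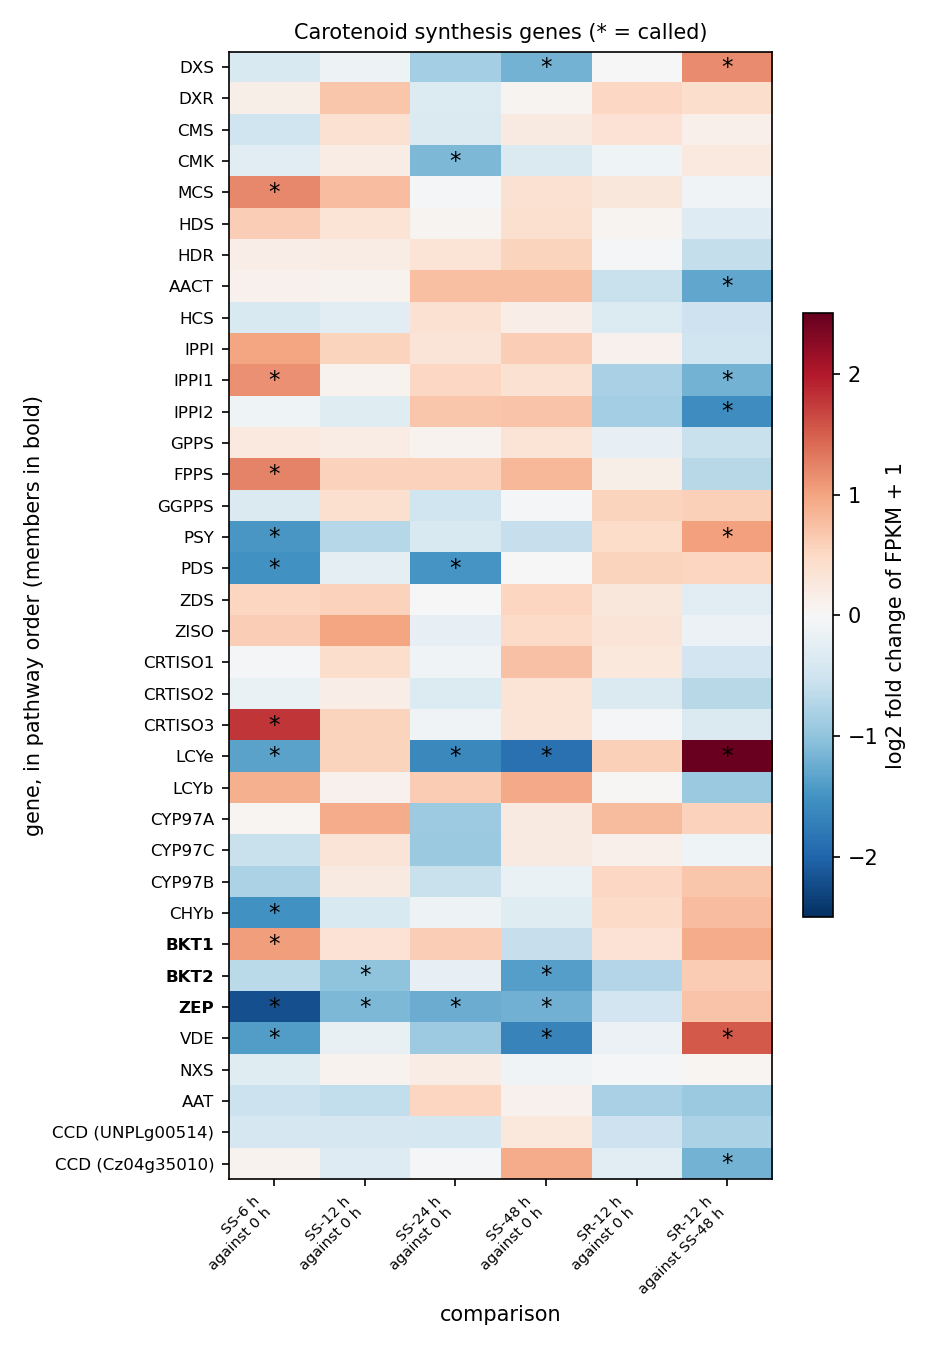
Log2 fold change of FPKM + 1 of the 36 carotenoid synthesis genes (rows, in pathway order, members in bold) in 6 comparisons (columns), red for higher and blue for lower, with an asterisk where both thresholds were passed. At SS-12 h the only 2 asterisks are those of BKT2 and ZEP, and SR-12 h against 0 h has none.

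Among the hydroxylases, CHYb (Cz12g16080) shared the early direction of ZEP and not of BKT1. It was between 32.6 and 40.2 FPKM at 0 h and between 7.28 and 16.2 FPKM at SS-6 h, a change of -1.52 ± 0.19 (limma adjusted p = 4.2e-06). Its later changes against 0 h, -0.12 after 24 h and -0.30 after 48 h, were not called. The cytochrome P450 genes CYP97A, CYP97B and CYP97C, of the family that hydroxylates carotene rings in plants, were not called in any comparison against 0 h. Their changes at SS-6 h were 0.05, -0.78 and -0.55.

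The lycopene cyclases decide between the alpha and beta branches. LCYe (Cz09g18310), of the alpha branch, was 83.9 ± 7.30 FPKM at 0 h and 32.6 ± 4.81 FPKM at SS-6 h, a change of -1.34 (limma adjusted p = 3e-07). After 24 and 48 h LCYe was called lower again, with -1.86 at the later time, but its change after 12 h was 0.56. LCYb (Cz12g10170), of the beta branch that feeds the ketolases, was 38.9 ± 3.62 FPKM at 0 h and 73.0 ± 3.31 FPKM at SS-6 h. Its changes of 0.89 after 6 h and 0.95 after 48 h (limma adjusted p = 1.5e-07 and 1.2e-07) stayed under the fold threshold. BKT1 and LCYb were thus both above their 0 h level early, while at SS-48 h LCYb was above it and BKT1 below.

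VDE (Cz06g02070), which reverses the step of ZEP, had 114 ± 4.72 FPKM at 0 h and 42.9 ± 3.89 FPKM at SS-6 h. Its change was -1.40 after 6 h and -1.68 after 48 h, with limma adjusted p of 1.4e-10 and 4.2e-11. Unlike ZEP, it had 99.8 ± 3.07 FPKM at SS-12 h, and its change there, -0.19, was not called. After sulfur return VDE was called higher than at SS-48 h by 1.53 ± 0.07. The neoxanthin synthase gene NXS (Cz15g04070), further along the epoxidation branch, had changes between -0.31 and 0.19 against 0 h and was not called.

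Upstream, phytoene synthase PSY (Cz05g32220) and phytoene desaturase PDS (Cz02g32280), the entry steps to coloured carotenoids, were called lower at SS-6 h by limma, with changes of -1.46 and -1.51. PDS was called lower again at SS-24 h, at -1.47, and PSY was called higher after sulfur return than at SS-48 h, at 1.03. The carotenoid isomerase gene CRTISO3 (Cz14g22040) was called higher at SS-6 h, from 11.1 ± 0.426 to 40.6 ± 2.60 FPKM, a change of 1.78. The other genes called higher at SS-6 h lie before the first carotenoid and were FPPS (1.24), MCS (1.20) and IPPI1 (1.13), which act in farnesyl diphosphate synthesis, the MEP route and isopentenyl diphosphate isomerization. So BKT1 and CRTISO3 were the only genes from phytoene onward that limma called higher at SS-6 h.

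The remaining calls of the list were these. DXS, the entry enzyme of the MEP route, was called lower at SS-48 h (-1.19) and higher in SR-12 h against SS-48 h (1.19). CMK of the same route was called lower at SS-24 h (-1.12), with LCYe at -1.62. In SR-12 h against SS-48 h LCYe was called higher at 2.46, while IPPI2 (-1.55), AACT (-1.30), IPPI1 (-1.19) and the carotenoid cleavage dioxygenase gene Cz04g35010 (-1.18) were called lower. That direction depends on scaling: median-ratio scaling gave 8 higher and 1 lower in this comparison.

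The genes most like each member were found by Pearson's r of log2(FPKM + 1) over the 18 samples, which share their conditions and libraries, so r is a description only. Among the other 168 named genes of the study, those nearest to BKT1 were PGLS2 (r = 0.908), SDH2 (0.774) and PAP3 (0.761). PGLS2 (Cz11g03250), a 6-phosphogluconolactonase of the oxidative pentose phosphate pathway, had 148 ± 6.22 FPKM in the controls, 482 ± 33.7 after 6 h and 112 ± 10.9 after 48 h, with the same peak and late low as BKT1. SDH2 (Cz15g13230) is annotated as a succinate dehydrogenase subunit and PAP3 (Cz16g11240) as a phosphatidate phosphatase of oil synthesis. MCT2 (Cz04g37050), a malonyl transferase gene, was the least like BKT1 (r = -0.867), at 1.30 ± 0.159 FPKM at 0 h and 5.58 ± 1.15 at SS-48 h.

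Among the 13777 other genes with a mean of at least 1 FPKM, Cz01g37150 (r = 0.96) and Cz02g13220 (r = 0.946) were nearest to BKT1. Cz02g13220, which the study lists without a name under the KEGG map of carotenoid biosynthesis, had 50.9 ± 2.30 FPKM in the controls and 150 ± 45.1 after 6 h, then 98.7 ± 7.997 after 24 h and 27.0 ± 3.03 after 48 h. Like BKT1, its mean level was highest at SS-6 h and lowest at SS-48 h.

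For BKT2 the nearest named genes were FAD5 (Cz06g00170, 1 of 2 genes of that name, r = 0.72), DGTT3 (Cz09g23010, 0.682) and ACCase (Cz19g10190, 0.612), all 3 annotated in lipid synthesis. The least like was ZDS, zeta-carotene desaturase of the carotenoid pathway itself (r = -0.823). The nearest of all genes were Cz09g16020 (r = 0.94) and Cz17g15210 (r = 0.876). Cz09g16020 had 32.3 ± 2.18 FPKM in the controls, 29.7 ± 2.91 after 24 h and 10.02 ± 2.35 after 48 h, with the same 2 high conditions as BKT2.

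For ZEP the nearest named genes were FAD4 (r = 0.922) and delta4FAD (Cz06g12050, also 1 of 2 genes of that name, 0.895), annotated as fatty acid desaturases, and PSY (0.876). FAD4 (Cz12g10230) had 26.4 ± 0.839 FPKM in the controls, 9.22 ± 2.01 after 6 h and 20.2 ± 0.434 at SR-12 h. The least like was FBA4 (Cz03g13070), an aldolase gene, with 41.2 ± 4.84 FPKM at 0 h and 353 ± 75.2 at SS-6 h (r = -0.961). The nearest of all genes were Cz18g04010 (r = 0.982) and Cz01g41070 (r = 0.968). Between members r was lower: 0.433 for BKT1 and BKT2, 0.384 for BKT2 and ZEP, and -0.428 for BKT1 and ZEP.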

How the data were processed

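The deposited values are FPKM to 0.01, which the authors calculated with RSEM from filtered single-end reads of poly-A RNA. Reads were aligned with HISAT (genome) and Bowtie2 (reference genes), in versions not given in the sources used here. Only FPKM was analysed, and genes missing from a sample's list were set to 0. Conditions and replicate numbers come from the sample titles.

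Values as log2(FPKM + 1) of all 15220 genes and 18 samples entered 1 linear model in limma 3.58.1 (R 4.3.3; lmFit, contrasts.fit and trended eBayes), with condition as the factor and no replicate block, and all 15 pairs of conditions as contrasts. Adjusted p is the Benjamini-Hochberg value across all genes in the same contrast. Errors of FPKM are SD over 3 replicates. On simulated data for SS-6 h against 0 h, 197 of 200 changed genes among 15220 were recovered and 2 unchanged genes were called. Recovery close to the fold threshold, or of genes of low FPKM, was not tested separately. The fold change understates changes of low genes, since 1 was added. Relative depth was estimated from the most common ratio of low FPKM values between samples, averaged over pairs. Genes of low FPKM are the least precise. Paralogs share sequence, and how RSEM divided reads between BKT1 and BKT2 was not checked.

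The named genes are the 3 members; the 36 carotenoid genes, with values for hydroxylases, cyclases, VDE, NXS, PSY, PDS and genes called; and for each member the 3 highest and 1 lowest r among named genes and the 2 highest among all genes. The members and lists were chosen with earlier results of these data known. Alternatives were pseudocounts of 0.1 and 0.5, a minimum mean FPKM of 1 or 5, median-ratio scaling, TPM, quantile normalization, only the 2 conditions compared, a replicate block, no trend, fold change of mean FPKM, an adjusted p of 0.001 and leaving out each replicate. Scripts used Python 3.11.15 with numpy 2.4.6, pandas 2.3.3 and matplotlib 3.10.9.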

Additional observations from a re-analysis of the deposited data

Results flagged for a closer look

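BKT1 had opposite signs against 0 h early and late in starvation, and the direct comparisons were called by limma: SS-48 h against SS-6 h at -1.62 and SS-48 h against SS-24 h at -1.18 on the log2(FPKM + 1) scale. In both, all 3 samples at SS-48 h were below all 3 samples of the earlier time. The contrast of each time with 0 h uses the same control samples. Its cause was not tested.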

How the results depend on the processing

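Each of 18 results (3 genes in 6 comparisons) was recomputed in 30 settings; 527 of the 540 values kept their direction and side of the thresholds, 8 lost a call, 4 gained one and 1 reversed, and 13 results kept both throughout. Scaling mattered most. With median-ratio scaling and quantile normalization, SR-12 h against SS-48 h became 1.265 and 1.406 for BKT1 and 1.047 and 1.111 for ZEP, and BKT2 at SS-12 h became -0.959 and -0.574. Quantile normalization gave BKT1 0.989 and BKT2 0.178 at SS-6 h, the latter reversed, and TPM gave BKT1 0.951. Leaving out 1 replicate gave BKT1 at SS-6 h 0.923 to 1.282 and BKT2 at SS-12 h -1.136 to -0.768. Of the 36 carotenoid genes, those called in SR-12 h against SS-48 h became 8 higher and 1 lower with median-ratio scaling and 7 and 2 with quantile normalization. At SS-12 h 1 was called higher with median-ratio scaling, quantile normalization, a pseudocount of 0.1 or the fold change of mean FPKM, and 1 lower with both scalings; at SS-6 h 2 were called higher with quantile normalization; and at SS-48 h 1 was called higher with TPM. Leaving out 1 replicate gave 0 to 1 higher at SS-12 h and at SS-48 h, and 1 to 2 lower at SS-12 h. Ratios of FPKM + 1 moved the log2 BKT1 to BKT2 ratio to 1.44 at 0 h, 3.16 at SS-6 h and 2.54 at SR-12 h, and that of BKT1 to ZEP to 2.24 at SS-6 h. The change of BKT1 minus that of BKT2 at SS-6 h went from 1.72 to 0.81, and that of BKT1 minus ZEP from 3.25 to 2.92, with quantile normalization, tried after seeing the data. The cause of these differences was not tested. With a replicate block BKT1 at SS-6 h stayed at 1.052, no member's call changed, and 4773 genes against 4775 were called at SS-6 h. Whether equal replicate numbers mark related cultures is not stated. With condition means removed, 12 of 45 same-numbered pairs had r over 0.1 and 8 of 18 samples correlated best with their own number. These correlations cannot settle it, since each condition mean rests on only 3 samples. Single-end FPKM without counts gives no counting interval, so precision rests on 3 replicates.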
